A study of Mus musculus with 7 samples.

Results

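The H19, Igf2 and Ins2 stretch of mouse chromosome 7 (build mm9, the 220 kb beginning at 149700001) was examined in a CapStarr-seq experiment, a capture of DNase hypersensitive sites followed by a reporter assay in which each fragment lies in the transcript it regulates. Fragments were assigned by their midpoint to 500 bp bins, and a bin was a member if it held at least 50 reads in each of the SCP1, pPGK and pR-Ea plasmid inputs. This gave 7 member bins of 440 in the stretch and of 30298 tested bins in the genome. Within it, a 900 bp site centred at 149853801 was selected on its reporter count over its input count in these same data, so its level is a description and supports nothing by itself. The other members were chosen by their input counts alone.

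All libraries came from 1 mouse T cell line, P5424. The 4 reporter libraries used the promoters SCP1 (a synthetic super core promoter), pPGK (from the phosphoglycerate kinase gene) and one labelled pR-Ea, and pPGK was also assayed in a library labelled PMA_I. The treatment field names PMA, a phorbol ester, and ionomycin, a calcium ionophore, and it does so for all samples alike. Only this library carries PMA_I in its title, and on that ground it alone is treated here as stimulated. The other 3 samples are the inputs, 1 for each promoter, and both pPGK libraries share 1 input. Each group held 1 library, so none of the differences below could be set against a spread between replicates, and each holds for the libraries compared.

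Igf2 encodes a fetal growth factor and H19 a long noncoding RNA, and the genes are imprinted in opposite ways: Igf2 is read from the paternal chromosome and H19 from the maternal one. A control region upstream of H19 binds the insulator protein CTCF when it is unmethylated, on the maternal chromosome, and this keeps Igf2 from enhancers on the far side of H19. Ins2, beyond Igf2, encodes an insulin of pancreatic beta cells. In the RefSeq gene table, which uses another build, the order along the chromosome is H19, Igf2 and Ins2, with the antisense transcript Igf2os overlapping Igf2. The bins below carry mm9 coordinates and were not assigned to single genes. A plasmid fragment has lost its neighbours and its native methylation, so the assay measures the fragment's own output and not that of an allele. No gene expression was measured. The sequence of the site was not analysed here, since the genome of this build was not used.

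The tables held 54992717 reporter and 45278192 input reads with SCP1, and 72217277 and 30248710 with pPGK. They held 61707100 reporter reads in PMA_I, and 51450446 and 18940646 with pR-Ea. Positions with a mapping quality score below 30 in any table were left out. This left 52694167 reporter and 43388180 input reads with SCP1, and 46088485 and 16822639 with pPGK. It left 55576187 reporter reads in PMA_I, and 49273627 and 18082304 with pR-Ea. Activity below is the reporter count over the input count of a bin, each scaled to its total in the 30298 tested bins, on a log2 scale with a pseudocount of 1. A value of 0 is thus the average of tested bins and not the output of an inert fragment. Intervals are exact (Clopper-Pearson) 95% intervals of the counts. They cover counting error only, and PCR copies are not independent molecules. The standard error (SE) is taken over distinct 5′ positions and does not cover variation between cultures. A bin was called above or below input at a change of at least 2-fold with an interval excluding equality, over at least 50 reads in both counts together. No label states which column of the tables is the input: it was taken to be the column that is identical in both pPGK tables, and all values below rest on that reading.

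Reads in the stretch were concentrated at the active site. Its 2 member bins, 149853501 to 149854000 and 149854001 to 149854500, held 91.8% of the SCP1 reporter reads of the stretch, 90.3% with pPGK, 86.3% in PMA_I and 70.3% with pR-Ea. They also held 54.5% of the SCP1 input reads, 65.4% of the pPGK input and 47.0% of the pR-Ea input. The site was thus the best represented place of the stretch in each plasmid pool. Of the other bins, 229 had no used read at all and 184 had reads but fewer than 50 in every input. The remaining 20 reached 50 reads in 1 or 2 inputs only. The minimum of 50 was reached by 26 bins of the SCP1 input, 11 of the pPGK input and 9 of the pR-Ea input.

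The first site bin, 149853501 to 149854000, was the most active of the 7 members with SCP1, PMA_I and pR-Ea. With SCP1 it held 65089 reporter and 5259 input reads, a log2 activity of 3.28 (95% interval 3.24 to 3.33, SE 0.11), or 9.74-fold above input. With pPGK the counts were 28090 and 2044, a log2 activity of 2.51 (interval 2.44 to 2.57, SE 0.09). In PMA_I they were 25174 and 2044, at 2.24 (interval 2.17 to 2.30, SE 0.08). The bin was lower with pR-Ea, at 10633 and 1709 reads and a log2 activity of 1.19 (interval 1.12 to 1.27, SE 0.04), just past the threshold. A bin that is no member, 149843001 to 149843500, exceeded it in the pR-Ea library: 237 reporter and 30 input reads gave 1.49 (SE 0.23). The same bin was called below input with SCP1, on 39 reporter and 62 input reads. It was at -0.59 with pPGK and -0.54 in PMA_I, and neither value was called. It is named after its values were seen. The first site bin was thus above input in all 4 libraries, in the order SCP1, pPGK, PMA_I and pR-Ea.

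The adjoining bin, 149854001 to 149854500, was nearly as active on fewer reads. With SCP1 it held 9460 reporter and 1182 input reads, at 2.65 (SE 0.28), and with pPGK 8944 and 632 reads, at 2.55 (SE 0.17). In PMA_I 6898 and 632 reads gave 2.06 (SE 0.16). With pR-Ea 2748 and 520 reads gave 0.95 (SE 0.09), just under the 2-fold threshold, so this value was not called. The pPGK values of the 2 site bins differed by less than their SE.

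**Figure D1:**
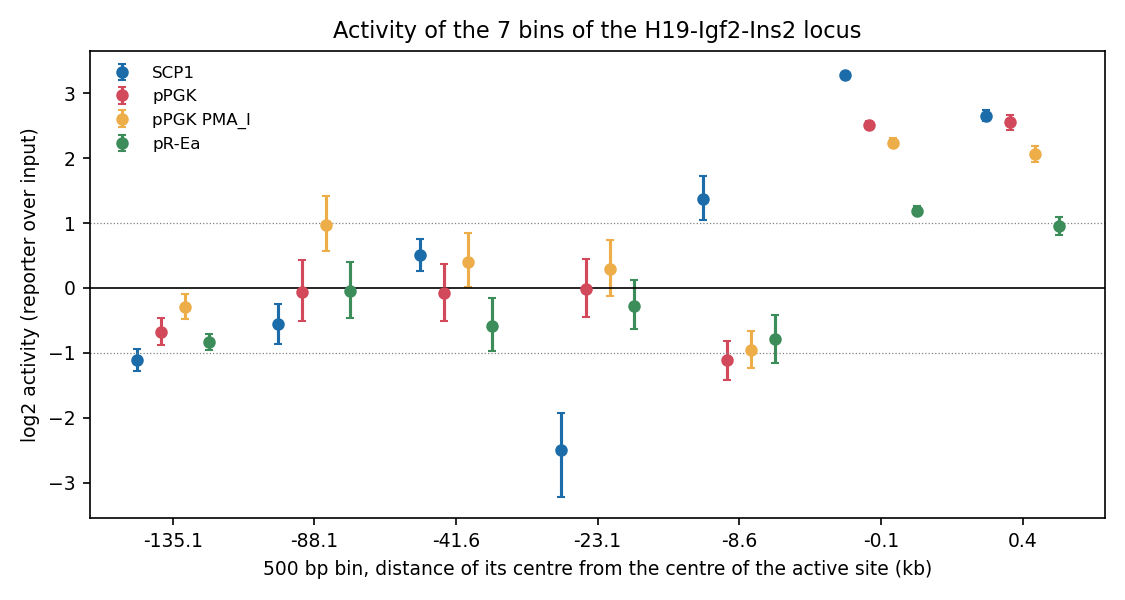
Log2 activity (y axis, reporter over input) of the 7 member bins, ordered along the chromosome and labelled on the x axis by the distance of each bin's centre from the centre of the active site in kb; the axis is not to scale. Points are single libraries, bars are exact 95% counting intervals and dotted lines mark a 2-fold change. The 2 bins at the right, of the site, lie above 2 with SCP1 and both pPGK libraries, while the 5 others spread from -2.50 to 1.37.

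Taken over its full 900 bp, the site held 74752 SCP1 reporter reads on 568 distinct 5′ positions, against 6491 input reads on 395. The log2 activity was 3.18 (SE 0.10) with SCP1, 2.51 (SE 0.08) with pPGK, 2.20 (SE 0.07) in PMA_I and 1.14 (SE 0.04) with pR-Ea. The reads were not carried by a few positions. The largest single position gave 3.16% of SCP1 reporter reads, 3.20% with pPGK, 5.02% in PMA_I and 2.31% with pR-Ea. The 10 largest gave 16.0%, 22.2%, 28.0% and 15.5%, against 17.7%, 27.6% and 13.7% of the SCP1, pPGK and pR-Ea input reads for the 10 largest input positions. Reporter reads were thus spread over positions about as widely as input reads.

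Single positions at the site with at least 10 input reads gave the same picture for the pPGK libraries and a wider spread for SCP1. With pPGK, 68 of 69 positions were above input and 61 were at least 2-fold above, with a median log2 activity of 2.17 and a range of -0.63 to 3.93. In PMA_I, 68 of 69 were above input, 64 at least 2-fold, with a median of 2.01. With pR-Ea 75 of 82 were above and 41 at least 2-fold, with a median of 0.996. With SCP1, 160 of 181 positions were above input and 142 at least 2-fold, with a median of 2.53. Another 16 SCP1 positions were at least 2-fold below input. The lowest of them, position 149854192, held 1 reporter read against 133 input reads, and position 149854051 held 9 against 107. With pPGK the first of these held 58 reporter and 0 input reads, and the second 250 and 1. Positions of 1 site come from overlapping fragments, so these are not independent measurements of the site.

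The SCP1, pPGK and pR-Ea plasmid pools overlapped in part at the site. The pPGK input held 189 positions and the SCP1 input 395, with 135 shared, which is 71.4% of the first and 34.2% of the second. The pR-Ea input held 360, of which 226 were also in the SCP1 input (62.8% of pR-Ea and 57.2% of SCP1 positions) and 117 in the pPGK input (32.5% and 61.9%). The fragments behind the site's values were therefore only partly the same from pool to pool. Positions were also split by the strand on which they were listed. With SCP1 the log2 activity was 3.13 at positions listed on the plus strand only, 3.24 on the minus strand only and 3.15 on both. With pPGK these were 2.53, 2.47 and 2.55, within overlapping counting intervals. With pR-Ea they were 0.88 (interval 0.71 to 1.06), 1.15 and 1.20 (1.10 to 1.29), lowest at plus-only positions. In PMA_I they were 2.56, 2.26 and 1.997, highest at plus-only positions. Plus-only positions lay mostly at the lower coordinates of the site and minus-only positions mostly at the higher ones. Split at the site's centre, pR-Ea was at 0.87 below it and 1.18 above it, and PMA_I at 2.43 and 2.16. That split was made after the values were seen. Strand and place in the site could therefore not be told apart.

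In 50 bp steps, output above input covered nearly the whole site. With SCP1 all 17 steps with at least 20 input reads were at least 2-fold above input, with a median log2 activity of 3.04. With pPGK all 14 such steps were at least 2-fold above, with a median of 2.51, and in PMA_I all 14, with a median of 2.19. With pR-Ea 14 of 15 steps were above input and 9 at least 2-fold, with a median of 1.07. The exception was 149854101 to 149854150, at -0.28 from 46 reporter and 20 input reads. That region was also the second lowest step with SCP1, at 1.39.

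Most reads lay on the side of the site with higher coordinates when positions listed on both strands were placed at their plus strand midpoint. Such positions held 50.1% of the site's SCP1 reporter reads, 41.7% with pPGK, 35.4% in PMA_I and 47.8% with pR-Ea. The side, the peaks and the 50 bp steps rest on this placement. SCP1 reporter reads peaked at 149853901 to 149853950, with 21341 reads or 405 RPM (reads scaled to a common total of used reads), and its input peaked in the same step at 41.6 RPM. The pPGK reporter peaked at 149853851 to 149853900 with 164 RPM, and the pR-Ea reporter in that step with 65.3 RPM. The step of highest SCP1 activity, 149854051 to 149854100, was at 4.71 (interval 4.28 to 5.25) on 1298 reporter and 38 input reads. With pPGK the same step was at 1.49, among the lowest. The highest pPGK step was 149853651 to 149853700, at 3.27 (interval 2.80 to 3.87) on 765 and 32 reads, and this was also the highest step in PMA_I, at 3.45. The steps of highest activity therefore differed between SCP1 and pPGK and rested on few input reads.

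**Figure D2:**
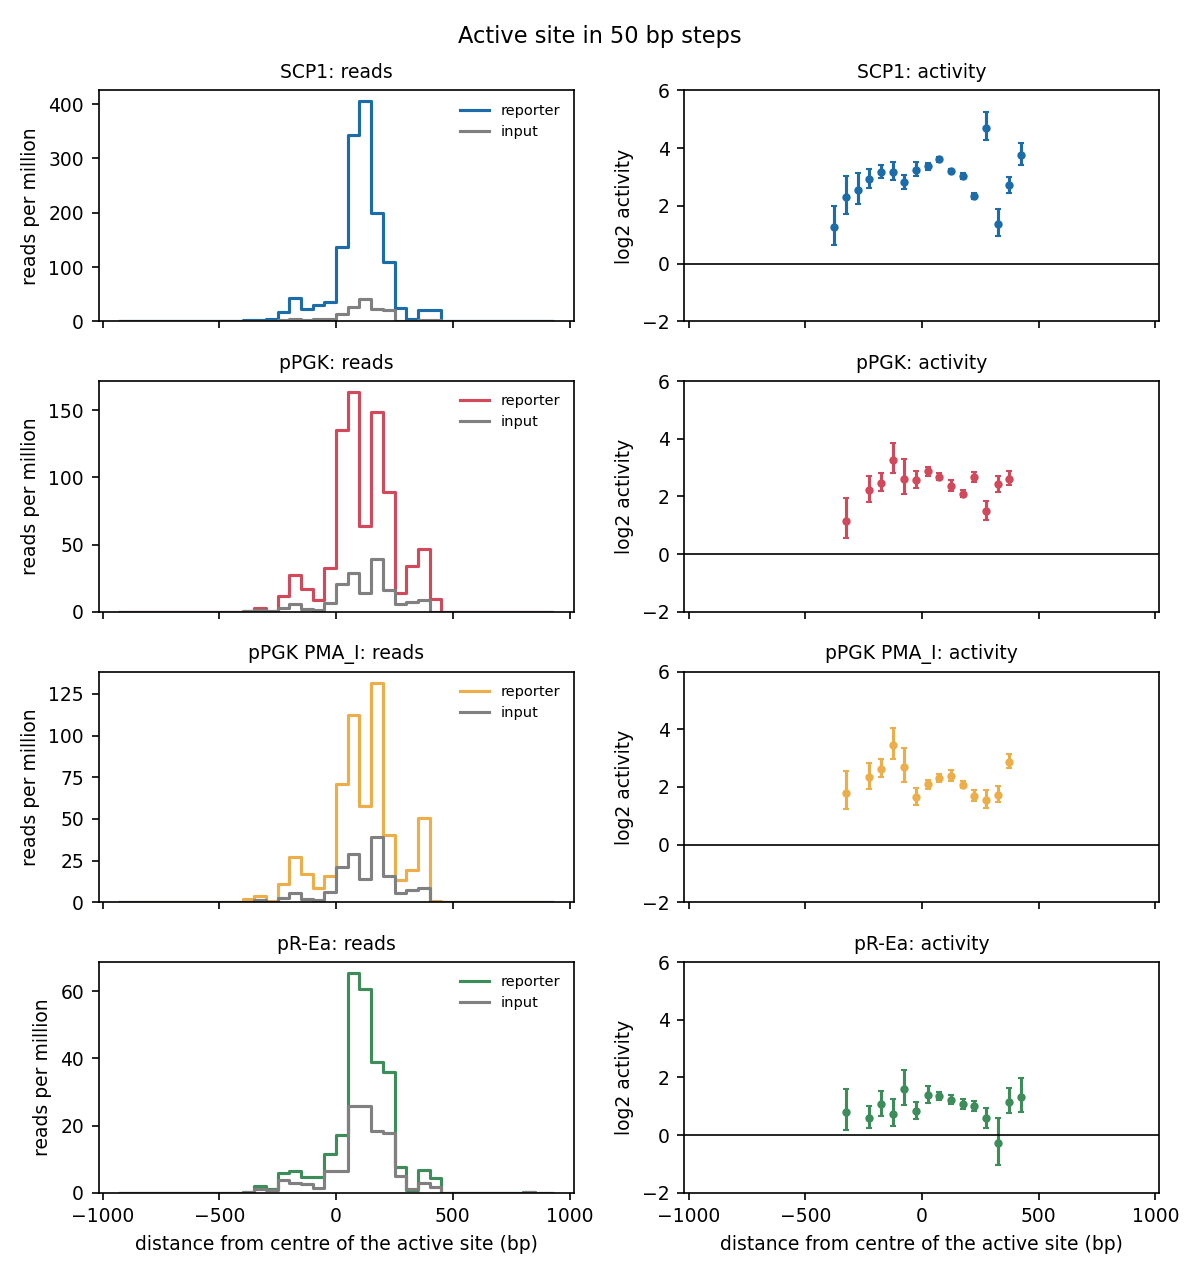
Reporter and input reads in RPM (left) and log2 activity (right) in 50 bp steps by distance from the centre of the active site in bp, for each reporter library. Coloured lines are reporter and grey lines input; points on the right are steps with at least 20 input reads, with exact 95% counting intervals. Reporter lines rise over the input within the 900 bp of the site, by the most with SCP1 (405 against 41.6 RPM at its peak) and the least with pR-Ea.

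Few fragments lay beyond the site. The bin just below it, 149853001 to 149853500, overlaps the site's edge and missed membership, with 51, 29 and 25 reads in the SCP1, pPGK and pR-Ea inputs. Its log2 activity was 1.86 (SE 0.44) with SCP1, 1.19 (SE 0.08) with pPGK, 1.95 (SE 0.16) in PMA_I and 0.64 (SE 0.44) with pR-Ea. No other member lay within 5 kb, and no member lay on the higher side of the site.

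The 5 other members lay on both sides of 0 with SCP1 and in PMA_I and all below 0 with pPGK and pR-Ea. With SCP1 their log2 activities ran from -2.50 to 1.37 with a median of -0.55, and with pPGK from -1.11 to -0.02 with a median of -0.08. In PMA_I they ran from -0.95 to 0.96 (median 0.28) and with pR-Ea from -0.83 to -0.05 (median -0.58). The site stood 3.73 above the median of these bins on the log2 scale with SCP1, 2.59 with pPGK, 1.91 in PMA_I and 1.71 with pR-Ea. Its distance to the most active of them was 1.81 (SE 0.31) with SCP1, 2.53 (SE 0.46) with pPGK, 1.23 (SE 0.13) in PMA_I and 1.19 (SE 0.34) with pR-Ea. These distances follow from the choice of the site and are given as a description. Their size depended on counting reads. By distinct 5′ positions the site stood 0.90 above the others' median with SCP1, 0.81 with pPGK, 0.97 in PMA_I and 0.41 with pR-Ea, where the counting intervals for pPGK (-0.73 to 2.35) and PMA_I (-0.34 to 2.27) included 0. By that count 0 members were called above input. A distinct position counts the same however many reads it holds, which limits how large a difference this count can show at the site. With SCP1 the site's reads lay on 568 reporter and 395 input positions.

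The nearest member, 149845001 to 149845500, lay on different sides of its input with different promoters. It held 321 reporter and 97 input reads with SCP1, a log2 activity of 1.37 (SE 0.29). With pPGK it held 199 and 178 reads, at -1.11 (SE 0.13), in PMA_I 241 and 178, at -0.95 (SE 0.47), and with pR-Ea 158 and 100, at -0.79 (SE 0.38). It was called above input with SCP1 and below input with pPGK, and the values in PMA_I and with pR-Ea passed neither threshold. Its reads lay on 18 SCP1 reporter positions and 12 with pPGK, so few fragments stood behind these values.

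The bin at 149830501 to 149831000 showed the opposite order. With SCP1 it held 26 reporter and 119 input reads, at -2.50 (SE 0.90), from 6 reporter positions. The other libraries were near the average, with 144 and 60 reads at -0.02 (SE 0.45) with pPGK, 193 and 60 at 0.28 (SE 0.37) in PMA_I, and 200 and 88 at -0.27 (SE 0.24) with pR-Ea.

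None of the other 3 members was called above input in any library. The bin at 149812001 to 149812500 had log2 activities of 0.50 with SCP1 (371 and 206 reads), -0.08 with pPGK (147 and 64), 0.40 in PMA_I (223 and 64) and -0.58 with pR-Ea (145 and 79). The bin at 149765501 to 149766000 was at -0.55 with SCP1 (165 and 190), -0.06 with pPGK (133 and 57), 0.96 in PMA_I (294 and 57) and -0.05 with pR-Ea (170 and 64). The bin at 149718501 to 149719000 rested on more reads and was below the average in every library, at -1.11 with SCP1 (460 and 780 reads, SE 0.21), -0.67 with pPGK (496 and 327, SE 0.32), -0.29 in PMA_I (701 and 327, SE 0.13) and -0.83 with pR-Ea (1356 and 886, SE 0.08). Only its SCP1 value passed the 2-fold threshold.

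By the call rule, 3 of the 7 members were above input with SCP1, where 3.69% of tested bins were, and 2 below, where 14.5% were. With pPGK 2 were above (3.66% of tested bins) and 1 below (9.58%). In PMA_I 2 were above (7.38%) and 0 below (9.44%), and with pR-Ea 1 was above (0.786%) and 0 below (8.2%). All of the members called above were bins of the site, other than the SCP1 call of the nearest member. Since the site was chosen for its output, nothing is read from these counts.

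Among the 30298 tested bins the site bins stood near the top. The first had the 10th highest activity with SCP1, ranked 3 with pPGK, 18 in PMA_I and 53 with pR-Ea. The second ranked 32, 2, 35 and 341 in the same order. The first bin also ranked high by input, at 395 in the SCP1 pool, 487 in the pPGK pool and 701 in the pR-Ea pool, so its values were among the better counted ones. Of all tested bins 8 were above input with all 3 promoters, and the first site bin was 1 of them. It had the highest value of all tested bins when each was ranked by its lowest activity over the 3 promoters, which was 1.19. Another of the 8, at 88784001 to 88784500 on chromosome 12, was close behind at 1.17, within the first site bin's counting interval of 1.12 to 1.27. By mean log2 activity over the 3 promoters the first site bin ranked 3. As the site was chosen for its output, these ranks are a description.

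**Figure D3:**
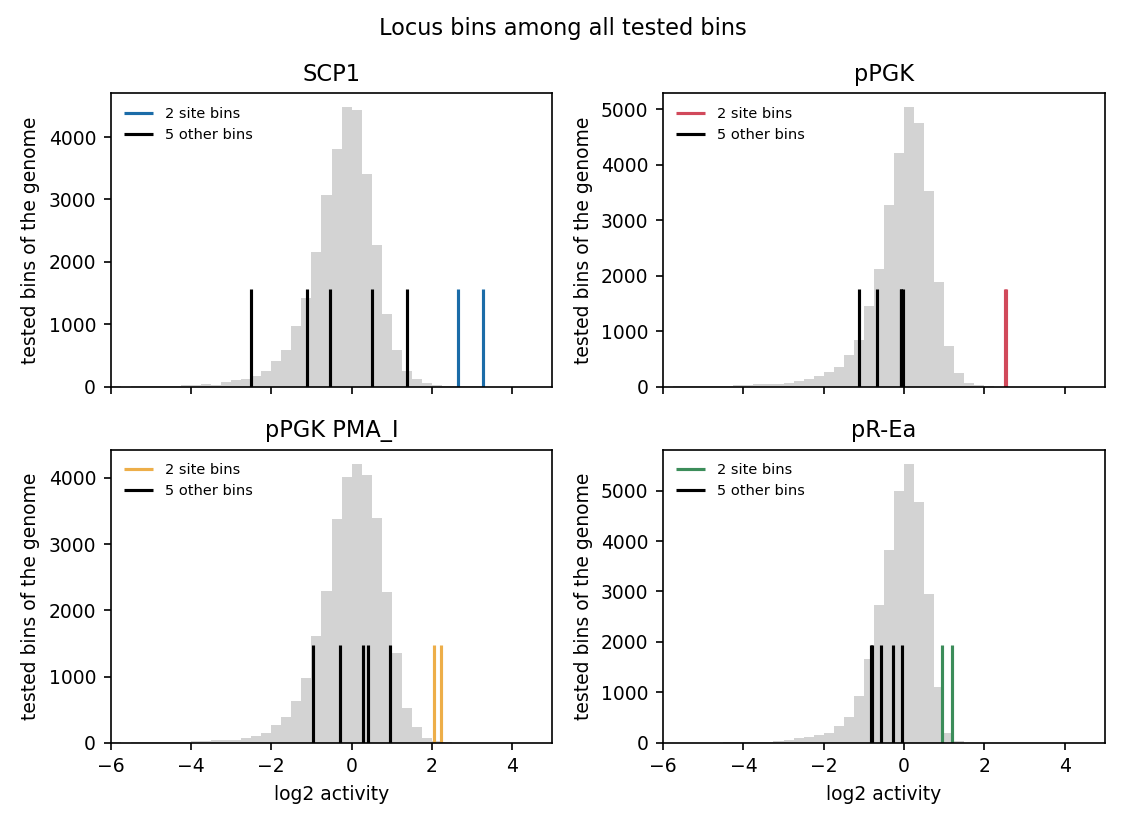
Distribution of log2 activity (x axis) over the 30298 tested bins of the genome (grey bars, y axis in bins), with the 7 members of the stretch as vertical lines, for each reporter library. The coloured lines of the 2 site bins lie at the upper end in each library, at 2.65 and 3.28 with SCP1, and the black lines of the 5 others lie within the bulk or, with SCP1, to both sides of it.

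The 220 kb on each side were read the same way. The stretch below held 4 tested bins, with log2 activities from -1.91 to 0.94 with SCP1, -2.37 to 0.56 with pPGK, -2.08 to 0.63 in PMA_I and -0.98 to 0.32 with pR-Ea. None of these 4 was called above input in any library, and 1 was called below in each library other than pR-Ea. Their medians were 0.21 (SCP1), 0.08 (pPGK), -0.39 (PMA_I) and -0.09 (pR-Ea), against -0.16, 0.06, 0.06 and -0.03 over all tested bins. The stretch above the locus held 0 tested bins.

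Stimulated and unstimulated pPGK reporters were set side by side, as both share 1 input. The site held 32374 reporter reads in PMA_I and 37198 without the stimulus. Scaled, this is a log2 ratio of -0.31 (95% counting interval -0.34 to -0.29, SE 0.09), which is 0.805 times the pPGK level and was not called. The ratio was -0.08 (SE 0.15) below the site's centre, from 4679 pPGK and 4773 PMA_I reads, and -0.35 (SE 0.10) above it, from 32519 and 27601 reads. The split at the centre was made after the values were seen, and the difference between its sides was not tested. It also rests on placing positions listed on both strands at their plus strand midpoint. The sign of the ratio depended on the handling of low mapping quality: without a score filter it was 0.12, and with the filter applied within each file it was -0.07. By distinct positions it was 0.11. At the first site bin the filter removed 27.9% of pPGK and 23.9% of PMA_I reporter reads.

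Single positions behind this ratio were uneven. Of 118 positions with at least 100 reads in the 2 libraries together, 46 were higher and 72 lower in PMA_I, with 4 at least 2-fold higher and 33 at least 2-fold lower. The lowest, position 149854114, held 410 pPGK reads and 1 PMA_I read with 0 input reads. In all, 10 of the 118 positions had at most 5 reads in PMA_I and together held 2310 pPGK reporter reads (6.21% of the site's), 24 PMA_I reads and 10 input reads. Of these 10, 8 were listed on the minus strand alone. No position had at most 5 pPGK reads among the 118. Over positions with at least 1 input read the site's ratio was -0.17 (SE 0.08), and over the 69 with at least 10 it was -0.03 (SE 0.09), a limit chosen after the values were seen. Both values kept the scale taken with positions without input included. With positions without an input read dropped across the genome and the scale recomputed, the site's ratio was -0.33 (counting interval -0.36 to -0.31). Positions without input reads gave 11.4% of the site's pPGK reporter reads, 9.20% with SCP1, 3.69% with pR-Ea and 1.965% in PMA_I. The part of these positions in the lower ratio was not tested beyond these values.

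**Figure D4:**
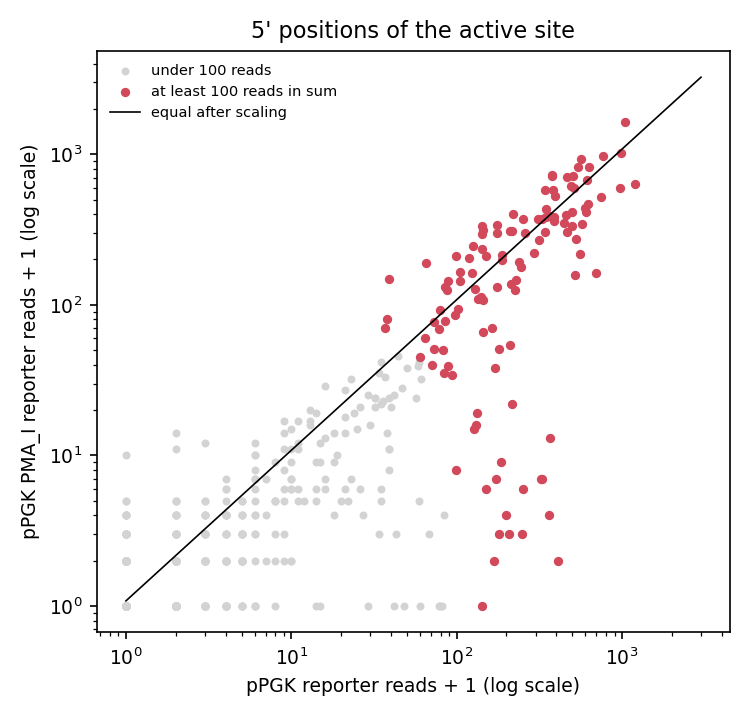
Reporter reads of each 5′ position of the active site with pPGK (x axis) and in PMA_I (y axis), both plus 1 on log scales. Red points are the 118 positions with at least 100 reads in sum, grey points the others, and the line marks equality after scaling. Of the red points 33 lie at least 2-fold below the line and 4 at least 2-fold above it, and 10 at the lower right have at most 5 PMA_I reads.

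Among the members, 1 of 7 was called higher in PMA_I, where 0.778% of tested bins were, and 0 lower, where 0.427% were. This was the bin at 149765501 to 149766000, with 133 reads unstimulated and 294 in PMA_I. Its log2 ratio of 1.03 had an interval of 0.73 to 1.34 and an SE of 0.38. It lay just past the threshold, and with the median ratio of tested bins set to 0 it was 0.97 and not called. By distinct positions it was -0.085. The score filter had removed 35.1% of the bin's pPGK reporter reads and 0.0% of those in PMA_I. Without a score filter the ratio was 0.898. The other members outside the site had ratios from 0.16 to 0.48.

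Promoters were compared by activity, with an interval over positions. Positions come from overlapping fragments of 1 library per promoter and are not independent. The interval therefore does not stand for a spread between replicates. At the site pR-Ea was lower than SCP1 by 4.13-fold (log2 difference -2.05, SE 0.11) and lower than pPGK by 2.59-fold (-1.37, SE 0.09). The pPGK site activity was 1.59-fold below that of SCP1 (-0.67, SE 0.13), which is under the threshold of 2-fold. These sizes also depended on counting reads: by distinct positions the site's difference was -0.48 for pR-Ea against SCP1, -0.21 for pR-Ea against pPGK and -0.27 for pPGK against SCP1, and neither pR-Ea call held. A distinct position counts the same however many reads it holds, so the loss of these calls does not show that the promoters were alike. The part of PCR copies in the sizes by reads was not tested. For pPGK against SCP1, by reads, the first bin was at -0.78 (SE 0.14) and the second at -0.10 (SE 0.32). The highest tested bin of the genome was also lower with pR-Ea, at 2.62, against 4.12 with SCP1 and 3.21 with pPGK, and the part of this narrower range in the site's difference was not tested.

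Outside the site the promoters differed at the pair of bins already described. At 149845001 to 149845500, pPGK was lower than SCP1 by 2.48 on the log2 scale (difference -2.48, SE 0.32) and pR-Ea was at -2.16 (SE 0.48). At 149830501 to 149831000, pPGK was higher than SCP1 by 2.48 (SE 1.004) and pR-Ea by 2.23 (SE 0.93). Several of these calls did not hold under other counting. The pPGK difference from SCP1 at 149845001 was -0.84 by distinct positions and -0.28 by reporter reads alone, not divided by input, and that at 149830501 was 0.85 by distinct positions. The pR-Ea difference from SCP1 at 149845001 ran from -2.29 to -0.47 over the alternatives and was -0.75 by reporter reads alone. For pPGK against SCP1, 1 member was higher (8.04% of tested bins were) and 1 lower (2.71%). For pR-Ea against SCP1, 1 was higher (9.28%) and 3 lower (5.61%), of which 2 were the site bins. For pR-Ea against pPGK, 0 were higher (5.54%) and 2 were lower (6.48%), both of the site. These comparisons share libraries and are not independent of each other.

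The members nearest the input minimum were 149765501 to 149766000, with 57 reads in its lowest input, and 149830501 to 149831000, with 60. Just outside it were 149719001 to 149719500, with 41, and 149832501 to 149833000, with 38. The first of these outside bins was at 0.27 with SCP1, 0.72 with pPGK, -0.12 in PMA_I and -0.51 with pR-Ea.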

How the data were processed

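CapStarr-seq read counts of 4 reporter libraries and 3 inputs from P5424 cells were used, 1 library per group. The submitters' processing notes name build mm9 and the tools Bowtie2, SAMtools and bedtools (2.28.0); the sources used here give neither their order nor their settings. The authors deposited tables of raw counts per 5′ position, with reads extended to 315 bp and a mapping quality score per line. Column 7 was read as reporter and column 8 as input, which no label states; column 8 was identical at every position of both pPGK tables. In the deposited tables a position found on both strands has 2 lines with equal counts and was counted once, at the plus strand midpoint. A position was used if no table listed it with a score below 30. Of reporter reads in the deposited pPGK file, 65.3% had a score of at least 30, against 99.5% in PMA_I and all in the others.

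Counts were summed in 500 bp bins with Python 3.11.15, NumPy 2.4.6, pandas 2.3.3 and SciPy 1.17.1. Activity, intervals and the rule of at least 2-fold over at least 50 reads are as given in the report; promoter differences used a 95% interval over positions. The rule was tried on simulated counts that held counting error alone. PCR copies and spread between positions were not simulated for it, so the trial does not cover them. Named bins were the site bins and the 3 nearest members per side, the 3 highest and lowest per library, called bins, and those nearest the input minimum. The members, lists and tests were chosen with earlier results of these data known. Alternatives changed scaling, filter, counting, strand, placement and input minimum.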

Additional observations from a re-analysis of the deposited data

Results flagged for a closer look

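The bin at 149845001 to 149845500, 8.6 kb below the site's centre, was above input with SCP1 (log2 activity 1.37) and below input with pPGK (-1.11); with 1 library each, this difference in direction was not tested against replicates.

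Bins that missed the input minimum in at least 1 pool entered no count of members and no promoter comparison. By the 2-fold call rule, 3 of them were called above an input of their own of at least 50 reads. The bin at 149811501 to 149812000 had log2 activities of 1.05 with pPGK (454 reporter and 90 input reads) and 1.24 in pPGK PMA_I (559 reporter reads), on 8 and 9 reporter positions, and 0.19 with SCP1 (931 and 640 reads). The bin at 149832501 to 149833000 had 1.79 with pPGK (474 and 56 reads, SE 0.61) and 1.60 in pPGK PMA_I (450 reads, SE 0.24), with 0.77 for SCP1 and -1.15 for pR-Ea (47 and 38 reads). The bin at 149853001 to 149853500, at the edge of the active site, had 1.86 with SCP1 (239 and 51 reads). Other bins that missed the minimum were called below an input of at least 50 reads, all with SCP1. They were 149728001 to 149728500 at -6.39 (0 and 65 reads) and 149901001 to 149901500 at -1.74 (37 and 99 reads). The last was 149843001 to 149843500, just past the 2-fold threshold (39 and 62 reads).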

How the results depend on the processing

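Of 1113 values under 16 alternatives, 860 stayed within their interval or, for counts, near the main count. Another 251 moved and 2 reversed. Among the counts taken as near were members of 6 in shifted bins, 8 at the 5′ end and 9 with minus placement, against 7. The distance of the site from the other members' median kept its sign in the 15 alternatives run for it, though by distinct positions its counting interval included 0 with pPGK and in PMA_I. Both alternatives on placement and on positions with an input read were chosen after seeing the data. Distances are on the log2 scale and counts are of member bins; the cause of each change was not tested unless stated.

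By distinct positions, a position counts the same however many reads it holds. The site then lay 0.90 above the others with SCP1, 0.81 with pPGK, 0.97 in pPGK PMA_I and 0.41 with pR-Ea. In each library 0 bins were above input, and 0 were below with SCP1 or pPGK. The count higher in PMA_I was 0, as was the count higher or lower for pPGK against SCP1. For pR-Ea, 0 were lower against SCP1 or pPGK. The reversed values were also by distinct positions: -0.085 for PMA_I against pPGK at 149765501, and 0.055 for pR-Ea against pPGK at 149853501.

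Other distances that moved were 5.03 (SCP1) and 3.18 (pPGK) on the plus strand, 3.47 (pPGK) and 2.50 (PMA_I) without the largest position, 3.26 (SCP1), 3.37 (pPGK) and 2.52 (PMA_I) with reads at the 5′ end, 2.91 (SCP1) with an input minimum of 20, which left 12 members, and 4.29 (SCP1), 3.18 (pPGK) and 2.48 (PMA_I) with a minimum of 100, which left 3.

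The single member higher in PMA_I became 0 with the median at 0, all used reads, either score filter, without the largest position and with a minimum of 20. In these settings the ratio of that bin, from 149765501, fell below the threshold. The count was also 0 on either strand, in shifted bins, at the 5′ end and with a minimum of 100. There that bin gave no value, so its call could not be made. Members below input with SCP1 became 1 with the median at 0, every listed line, shifted bins, a minimum of 100 and minus placement. They became 0 on the minus strand and at the 5′ end. The bin from 149830501, among those below, gave no value on the minus strand, in shifted bins, at the 5′ end and with a minimum of 100. Those below with pPGK became 0 without a filter, on the minus strand and with a minimum of 100. On the minus strand and with a minimum of 100 the bin behind that call, from 149845001, gave no value. Those below in PMA_I became 1 with the median at 0, all used reads, the filter within each file, without the largest position, at the 5′ end and with minus placement. Those below with pR-Ea became 1 in shifted bins and with a minimum of 20. Members above input became 5 with pPGK and 5 in PMA_I with a minimum of 20, 4 in PMA_I at the 5′ end, and 2 with pR-Ea on the plus strand, at the 5′ end and at positions with an input read.

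For pPGK against SCP1, lower members became 2 with all used reads, without the largest position and at the 5′ end. They became 0 on either strand, in shifted bins, with a minimum of 100 and by reporter reads alone. Of the settings that gave 0, only reporter reads alone held a value for the lower bin, from 149845001. Higher members became 0 on the minus strand, in shifted bins and with a minimum of 100, where the higher bin, from 149830501, gave no value. For pR-Ea against SCP1, higher members became 0 on the minus strand, at the 5′ end and with a minimum of 100. The bin from 149830501 again gave no value there. Higher members became 2 by reporter reads alone, and lower members 5 with a minimum of 20. For pR-Ea against pPGK, lower members became 5 at the 5′ end and with a minimum of 20, and higher members 1 by reporter reads alone. Neighbours within 5 kb gave no value, since no other member lay there. No paired analysis was possible because each group held 1 library. Outside the site, inputs of as few as 57 reads on 8 positions limit what could be told apart.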
